A study of Mus musculus with 38 samples.

Results

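The subject is a set of 3040 p300 sites that were present in lymphoid progenitor (LP) cells, lost from the p300 list after Notch stimulation, and free of a RUNX1 peak at either stage. They were chosen by the peak calls themselves, from chromatin immunoprecipitation sequencing (ChIP-seq) peak lists of Cas9-LP cells, as the LP p300 peaks that shared no base with a Phase 1 p300 peak, an LP RUNX1 peak or a Phase 1 RUNX1 peak. They made up 8.4% of the 36182 LP p300 peaks and 40.6% of the 7491 LP-specific ones. Below they are called the RUNX1-free LP-specific sites, or simply the members.

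Cas9-LP is a mouse line established from fetal liver progenitors of mice that lacked Ebf1, a factor required for the B lineage, and that carried Cas9 in the Rosa26 locus, so every group here shared the Ebf1 deficiency and the Cas9 transgene. LP cells were grown on OP9 stroma, which gives no Notch ligand, and Phase 1 cells on OP9-DLL4, the same stroma made to express a ligand of Notch, for 2 days, in medium with SCF, Flt3L and IL-7. RUNX1, CTCF, Med12, p300 and the intracellular domain of Notch1 (Notch1-IC) were immunoprecipitated, 2 replicates in each group, and the 2 replicates had been merged into 1 list of reproducible peaks, and values per replicate were not analysed here. Phase 1 cells given guide RNAs against Cbfb (sgCbfb) or control guides (sgCont) supplied further Med12 lists. RUNX1 was also mapped in LP cells with guides against Ctcf or control guides and in Phase 1 cells with guides against Med12 or control guides, and Notch1-IC in Phase 2 cells, a later stage on OP9-DLL4. In all, 38 samples in 19 groups gave 17 lists.

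p300 is a histone acetyltransferase that is recruited to active enhancers and promoters by transcription factors. Med12 belongs to the kinase module of Mediator, the complex that links such factors to RNA polymerase II. CTCF binds a long DNA sequence and anchors chromatin loops, RUNX1 is a core regulator of blood progenitors and of early T cell development, and Notch1-IC is the part of the Notch receptor that enters the nucleus after ligand binding and acts through the DNA-binding protein RBPJ.

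Several members are shown as sequence, because the results below turn on what lies at their centres. Each is the 200 bp around the p300 peak centre, read from GRCm38 (the build the authors call mm10), plus strand, from members annotated as intronic or intergenic, and the members shown were picked after their values were seen. Capitals mark matches on either strand to the short strings described further on. The first is the highest-scored member, in an intron of Cradd, with an LP Med12 peak. The next pair are the highest-scored of these eligible members with a CTCF peak at both stages and the CTCF string. The Ripor1 member described below scored higher but was annotated otherwise. Armc12 and Hemk1 stand for members with neither Med12 nor CTCF in the unperturbed cells and with the E-box string. Runx3 and Irf8 are the highest-scored members at these lineage factor genes.

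Cradd, chr10:95314081-95314280: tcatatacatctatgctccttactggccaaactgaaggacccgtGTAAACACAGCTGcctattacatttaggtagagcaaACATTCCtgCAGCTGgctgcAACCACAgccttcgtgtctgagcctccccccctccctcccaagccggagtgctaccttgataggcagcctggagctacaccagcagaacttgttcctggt
Ptma, chr1:86532386-86532585: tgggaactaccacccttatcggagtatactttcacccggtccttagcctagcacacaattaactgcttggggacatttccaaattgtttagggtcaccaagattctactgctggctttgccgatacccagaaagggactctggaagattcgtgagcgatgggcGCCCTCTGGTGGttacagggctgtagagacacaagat
Tnfrsf18, chr4:156033573-156033772: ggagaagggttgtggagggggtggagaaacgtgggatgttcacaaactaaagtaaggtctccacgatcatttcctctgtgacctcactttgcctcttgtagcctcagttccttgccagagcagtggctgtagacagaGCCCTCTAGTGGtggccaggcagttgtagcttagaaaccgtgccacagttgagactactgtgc
Armc12, chr17:28518220-28518419: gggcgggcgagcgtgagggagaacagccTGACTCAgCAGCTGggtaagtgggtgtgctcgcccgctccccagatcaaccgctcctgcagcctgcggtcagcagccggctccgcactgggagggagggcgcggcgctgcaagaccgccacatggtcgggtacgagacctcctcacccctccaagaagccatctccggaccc
Hemk1, chr9:107333770-107333969: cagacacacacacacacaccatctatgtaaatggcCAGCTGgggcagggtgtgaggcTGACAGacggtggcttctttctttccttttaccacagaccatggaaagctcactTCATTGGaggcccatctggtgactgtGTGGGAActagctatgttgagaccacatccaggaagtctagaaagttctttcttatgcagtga
Runx3, chr4:135169614-135169813: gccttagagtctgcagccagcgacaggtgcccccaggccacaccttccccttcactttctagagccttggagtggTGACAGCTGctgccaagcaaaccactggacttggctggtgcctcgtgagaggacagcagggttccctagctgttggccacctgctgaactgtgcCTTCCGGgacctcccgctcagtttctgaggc
Irf8, chr8:120820068-120820267: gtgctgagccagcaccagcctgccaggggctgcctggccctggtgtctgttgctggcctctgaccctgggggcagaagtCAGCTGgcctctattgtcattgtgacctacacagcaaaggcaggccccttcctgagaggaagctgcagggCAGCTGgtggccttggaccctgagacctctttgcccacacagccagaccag

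For comparison, 3 further classes of p300 peaks were used, all formed with the same overlap of 1 bp. The 4451 LP-specific p300 peaks with RUNX1 also lacked a Phase 1 p300 peak but overlapped a RUNX1 peak of either stage. The 1788 constant p300 peaks without RUNX1 overlapped a Phase 1 p300 peak and no RUNX1 peak. The 12142 Phase 1-specific p300 peaks without RUNX1 were the mirror image of the members in the Phase 1 list of 49116 peaks. The remaining 26903 LP p300 peaks were constant and had RUNX1.

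The peak score, the authors' normalized score with a lower limit of 15, shows where the members stood in the LP p300 list. The presence of a p300 peak chose the members, so these scores are a description. The median score was 20.4, with quartiles of 17.2 and 27.6, against 54.4 over all LP p300 peaks. It was 29.4 at LP-specific peaks with RUNX1, 26.2 at constant peaks without RUNX1 and 73.2 at constant peaks with RUNX1. Among the members 46.6% scored below 20, and 210 (6.91%) scored above the median of the whole list. The members were therefore mostly low-scored peaks, with a small tail of 66 that scored 100 or more and reached 531.1. Over all LP p300 peaks, 20.7% had no Phase 1 p300 overlap and 13.3% had no RUNX1 overlap in either stage.

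**Figure D1:**
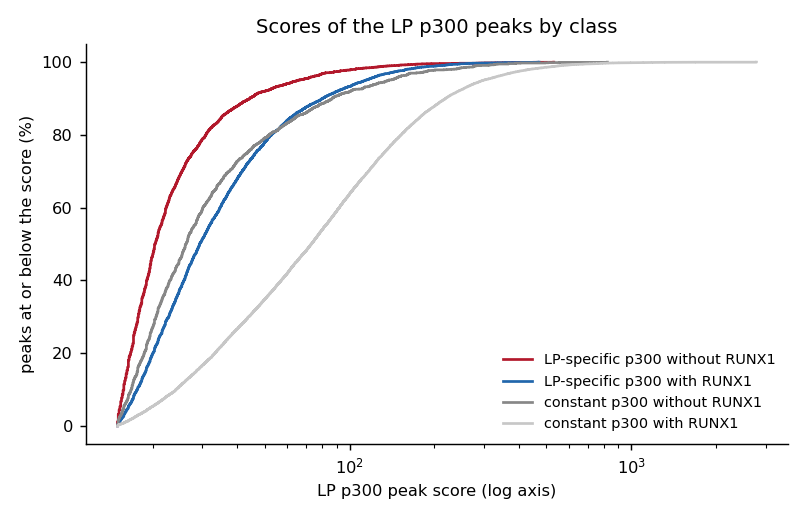
Share of LP p300 peaks (vertical axis, percent) at or below a given p300 peak score (horizontal axis, log scale) for the 4 classes of the LP list. The curve of the 3040 members (red) rises first, with a median of 20.4, and that of constant peaks with RUNX1 rises last, with a median of 73.2.

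The edges of the rule were thin. A peak of one of the 3 lists that defined the members lay within 50 bp of 30 members, which had a median p300 score of 37.95. Just outside the rule, 9 LP p300 peaks without RUNX1 overlapped a Phase 1 p300 peak by no more than 50 bp, with a median score of 27.4. A further 10 LP-specific peaks overlapped RUNX1 by no more than 50 bp, with a median score of 59.05. Widening the distance to 1 kb left 2521 members (82.9%) with none of the 3 lists nearby. An LP RUNX1 peak lay within 1 kb of 318 members (10.5%), and a Phase 1 p300 peak within 1 kb of 422 (13.9%). The 4 much shorter RUNX1 lists of cells with control, Ctcf or Med12 guides covered 6 members in all (0.197%), against 8.48% of all LP p300 peaks. They covered 1.101% of LP-specific peaks with RUNX1, so they missed most sites that had a RUNX1 peak. The members were also chosen for lacking RUNX1, so this low share is no independent test of its absence.

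Med12 separated the members from the LP-specific sites that carried RUNX1. An LP Med12 peak overlapped 776 members, or 25.5% (95% Wilson interval 24.0 to 27.1), against 74.3% (73.0 to 75.6) of LP-specific peaks with RUNX1. The odds ratio was 0.12 and the adjusted p of Fisher's exact test was returned as 0, too small for the software to represent. The background was high, since an LP Med12 peak overlapped 78% of all LP p300 peaks. All tests of this kind were two-sided, p-values were adjusted with Benjamini-Hochberg over 18 planned tests, and peaks are not replicates of a culture, so intervals and tests cover counting error only.

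The members had lower p300 scores, so the shares were also read within 5 classes of p300 score. Within them the LP Med12 share ran from 19.3% to 32.7% at members, and from 46.4% to 88.2% at LP-specific peaks with RUNX1. The Mantel-Haenszel odds ratio over the classes was 0.16. Fixed score ranges show where the shares parted most. Between scores of 15 and 20 an LP Med12 peak overlapped 19.8% (17.9 to 22.0) of 1416 members and 49.5% (46.2 to 52.8) of 875 peaks with RUNX1. At scores of 100 or more the shares were 24.2% (15.5 to 35.8) of 66 members and 88.6% (84.4 to 91.7) of 297 peaks with RUNX1. The Med12 share of peaks with RUNX1 climbed with the p300 score, whereas that of members stayed between 19.8% and 33.3% over the whole range.

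**Figure D2:**
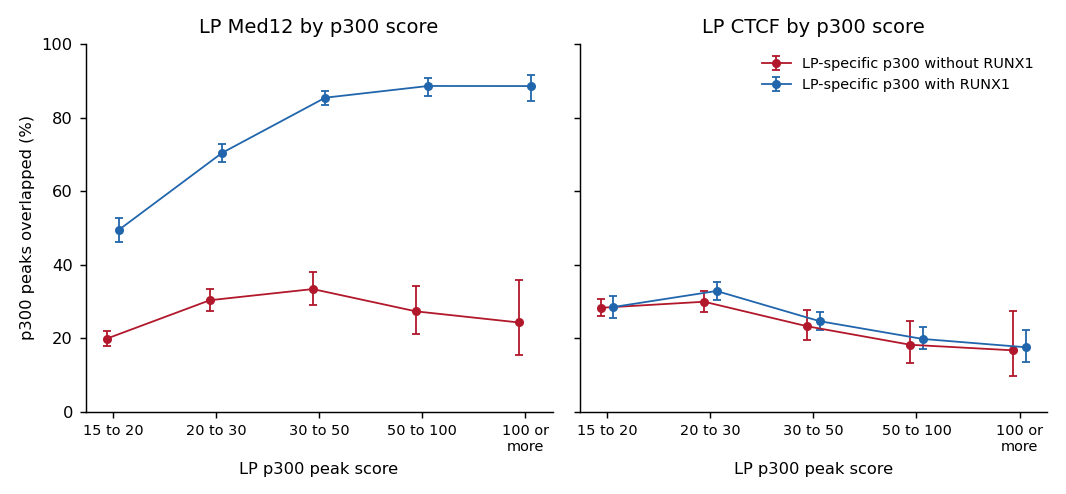
Share of p300 peaks overlapped by an LP Med12 peak (left) or an LP CTCF peak (right), by range of LP p300 score, for members (red) and LP-specific peaks with RUNX1 (blue). Points are percent with 95% Wilson intervals. The Med12 curves separate with score, to 24.2% and 88.6% at scores of 100 or more, while the CTCF intervals overlap in every range.

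Against constant p300 peaks without RUNX1, the members carried LP Med12 about as often. The shares were 25.5% and 25.8% (23.9 to 27.9), with an odds ratio of 0.98 and an adjusted Fisher p of 0.811. The intervals leave room for a difference of a few percentage points in either direction. When a Med12 peak within 500 bp of the p300 peak was counted, the share was 29.0% at members and 32.4% at constant peaks (odds ratio 0.85, adjusted Fisher p = 0.0234).

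Few members had Med12 in Phase 1. A Phase 1 Med12 peak overlapped 153 members, 5.03% (4.31 to 5.87), against 29.3% (27.2 to 31.4) of constant peaks without RUNX1 and 22.7% (21.5 to 24.0) of LP-specific peaks with RUNX1. The odds ratios were 0.13 (adjusted Fisher p = 1.28e-117) and 0.18 (adjusted Fisher p = 2.19e-107). By rule every constant peak has a Phase 1 p300 peak and no member does, so the rule favoured the direction of the first. Peaks with RUNX1 could have a Phase 1 RUNX1 peak, which the members could not. Over all LP p300 peaks the Phase 1 Med12 share was 72.7%. Of the 776 members with LP Med12, 98 (12.6%, 10.5 to 15.2) had a Phase 1 Med12 peak as well, compared with 80.5% of all 30020 LP Med12 peaks, 27.1% of those at LP-specific peaks with RUNX1 and 47.4% of those at constant peaks without RUNX1. Thus 678 members (22.3%) had Med12 in LP only, against 13.4% of all LP p300 peaks. That share was 54.2% at LP-specific peaks with RUNX1 and 13.6% at constant peaks without RUNX1. Another 55 members (1.81%, against 8.11% of all LP p300 peaks) had Med12 in Phase 1 only, and 2209 (72.7%) in neither list. The Phase 1 Med12 list was the longer, at 39132 peaks. In the Phase 1 cells with guide RNAs, Med12 overlapped 10.6% of members in sgCbfb cells and 1.71% in sgCont cells, against 42.8% and 47.9% of all LP p300 peaks.

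The Med12 peaks at members were low-scored within their own list. Their median score was 20.0, at percentile 11.5 of the LP Med12 list, while those at LP-specific peaks with RUNX1 had a median of 28.3 (percentile 26.8) and those at constant peaks without RUNX1 a median of 22.3 (percentile 15.98). Their centres lay close to the p300 centres, at a median distance of 30 bp, and 71.6% fell within 50 bp.

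CTCF behaved differently from Med12. An LP CTCF peak overlapped 829 members, 27.3% (25.7 to 28.9), and a Phase 1 CTCF peak overlapped 786, 25.9% (24.3 to 27.4). The shares over all LP p300 peaks were 23.2% and 22.3%. At LP-specific peaks with RUNX1 the shares were 26.7% in LP (odds ratio 1.03, adjusted Fisher p = 0.651) and 24.6% in Phase 1 (odds ratio 1.07, adjusted Fisher p = 0.272). With the lists of the stages brought to equal lengths both differences were called, at 27.4% against 23.9% in LP (adjusted Fisher p = 6.07e-05) and 26.5% against 22.2% in Phase 1 (adjusted Fisher p = 5.52e-07). With factor centres required within 100 bp the Phase 1 difference was called as well (adjusted Fisher p = 0.00916). Constant peaks without RUNX1 had more CTCF, 32.9% in LP (odds ratio 0.76, adjusted Fisher p = 6.47e-05) and 33.1% in Phase 1 (odds ratio 0.70, adjusted Fisher p = 1.98e-07). Both of these calls were lost at equal list lengths (odds ratios 1.03 and 0.94).

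Most CTCF peaks at members were present at both stages, as in the other classes. Of the 829 members with LP CTCF, 773 (93.2%, 91.3 to 94.8) also had a Phase 1 CTCF peak, beside 90.5% of all 45388 LP CTCF peaks, 89.1% of those at LP-specific peaks with RUNX1 and 96.6% of those at constant peaks without RUNX1. Only 56 members had CTCF in LP alone and 13 in Phase 1 alone. The CTCF peaks at members had a median score of 185, at percentile 85.2 of the LP CTCF list, much like those at LP-specific peaks with RUNX1 (percentile 88.0) and at constant peaks without RUNX1 (percentile 84.4). The CTCF centre lay at a median of 41 bp from the p300 centre, and 59.8% were within 50 bp.

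**Figure D3:**
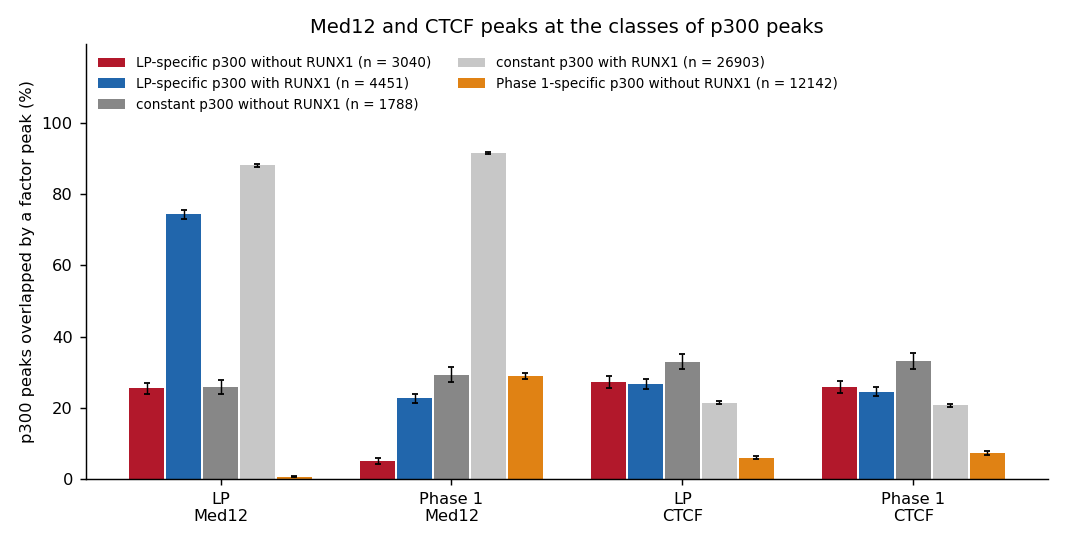
Share of p300 peaks (percent, bars, with 95% Wilson intervals) overlapped by a Med12 or CTCF peak of each stage, for the 5 classes of p300 peaks. The members (red) had Med12 at 25.5% in LP and 5.03% in Phase 1, and CTCF at 27.3% and 25.9%.

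**Figure D4:**
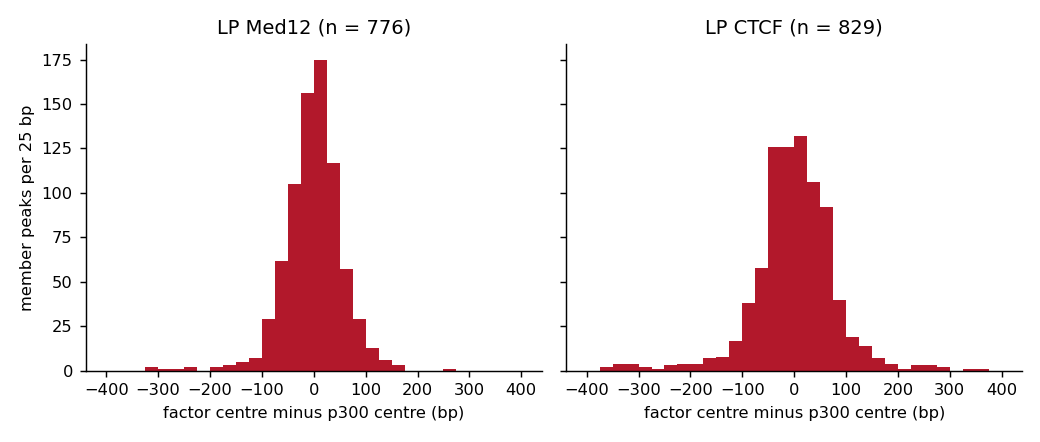
Distance of the LP Med12 centre (left, 776 members) and the LP CTCF centre (right, 829 members) from the p300 centre, in bp, as counts of members per bin of 25 bp. Both distributions peak at the p300 centre, with median distances of 30 bp and 41 bp.

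Both LP peaks, Med12 and CTCF, were present at 186 members (6.12%), and 1419 (46.7%) had at least 1 of them, against 18.1% and 83.1% of all LP p300 peaks. An LP Med12 peak overlapped 22.4% (19.7 to 25.4) of the members with LP CTCF and 26.7% (24.9 to 28.6) of those without, and the shares over all LP p300 peaks were 78.3% and 78.0%. Neither Med12 nor CTCF, in LP or in Phase 1, was found at 1567 members (51.5%, 49.8 to 53.3), compared with 16.4% of LP-specific peaks with RUNX1, 35.6% of constant peaks without RUNX1 and 9.60% of all LP p300 peaks.

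The members were then set beside their mirror image, the Phase 1-specific p300 peaks without RUNX1, each read with the factor of its own stage. CTCF was far more frequent at the members, 27.3% against 7.35% (6.90 to 7.83), with an odds ratio of 4.72 and an adjusted Fisher p of 6.25e-174. Score classes were set here by rank within each stage's own p300 list. The share was higher at the members in each of these 5 classes, and in the highest, of 36 and 109 peaks, it was 16.7% (7.87 to 31.9) against 15.6% (9.97 to 23.6), with overlapping intervals. Med12 did not give a stable order. Its share was 25.5% at members and 29.0% (28.2 to 29.8) at Phase 1-specific peaks (odds ratio 0.84, adjusted Fisher p = 0.000278), but the Mantel-Haenszel odds ratio over these classes was 1.27 (adjusted p = 5.15e-07). The class values crossed, from 22.3% against 10.2% in the lowest class to 29.6% against 68.2% in the third. The mirror class also differed in sequence, with the AP-1 string TGANTCA at 35.7% of its centres and 7.07% of the members. Phase 1 p300 peaks whose nearest gene was a stromal marker (24 genes such as collagens and other mesenchymal genes) numbered 82, or 0.167%, and LP p300 peaks 10, or 0.0276%. The part of stromal cells in this comparison was not tested.

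Notch1-IC was rare at the members. An LP Notch1-IC peak overlapped 12 members, 0.395% (0.226 to 0.689), against 0.562% of LP-specific peaks with RUNX1 (adjusted Fisher p = 0.482) and 0.559% of constant peaks without RUNX1 (adjusted Fisher p = 0.571), and 3.94% of all LP p300 peaks. The Phase 1 and Phase 2 Notch1-IC lists, of 152 and 352 peaks, each covered 1 member, both already among the 12, against 0.31% and 0.561% of all LP p300 peaks. The 5 highest-scored of the 12 were nearest to Irf1 (an interferon response factor), Mgat1 (an N-glycan enzyme), Hemk1, Klf10 (a zinc finger repressor) and Gng2 (a G protein subunit). Their Notch1-IC scores were 15.2, 49.8, 15.4, 19.4 and 15. The LP Notch1-IC list, from cells grown without Notch ligand, held 1585 peaks with a lowest score of 15 and a median of 20.3. What such a peak marks without ligand was not tested. The member near Mgat1, chr11:49241481-49241809, had the highest Notch1-IC score of these 5. Its p300 score was 245.4, below the 330.3 near Irf1, and its Med12 scores were 144.3 in LP and 97.4 in Phase 1. The Gng2 member also had Med12 at both stages, at 76.0 and 54.3. The Hemk1 member, printed above, holds the RBPJ string GTGGGAA, the only one of these 5 that does.

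By annotation the members were mostly distal. Introns held 45.8% and intergenic sequence 40.8%, and only 182 members (5.99%, 5.20 to 6.89) were annotated as promoter, against 25.7% of all LP p300 peaks. The promoter share was 12.6% (11.6 to 13.6) at LP-specific peaks with RUNX1 (odds ratio 0.44, adjusted Fisher p = 2.51e-21) and 10.7% (9.33 to 12.2) at constant peaks without RUNX1 (odds ratio 0.53, adjusted Fisher p = 1.86e-08). The second difference was not called once RUNX1 had to be absent within 1 kb and from the guide RNA lists (5.08% against 6.66%, adjusted Fisher p = 0.0580). The median distance to the nearest start was 18.0 kb at members, 14.5 kb at LP-specific peaks with RUNX1 and 10.4 kb over the list. A start lay between 10 and 100 kb away for 57.0% of members, and beyond 100 kb for 9.14%.

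The sequence at the members was searched for short strings in the 200 bp around each p300 centre, and windows as long, 2 kb away on both sides, gave the background. A match is a description and not evidence of binding. The RUNX string TGTGGTT was found at 9.11% (8.14 to 10.2) of members and 15.7% (14.7 to 16.8) of LP-specific peaks with RUNX1, with an odds ratio of 0.54 and an adjusted Fisher p of 7.81e-17. Since RUNX1 peaks formed both classes, the direction follows the rule. The members still had the string more often than their flanks, at 4.97%, and less often than all LP p300 centres, at 17.2%. The Cradd member above is one that carries it. The CTCF string, a 12-letter core consensus, was at 5.66% of members and 0.197% of flanks. It was at 20.5% (17.9 to 23.4) of the members with an LP CTCF peak and at 2 of the 2211 without. The share at LP-specific peaks with RUNX1 was 4.63% (adjusted Fisher p = 0.0793), a difference that was called with RUNX1 absent within 1 kb (adjusted Fisher p = 0.0266) and at equal list lengths (adjusted Fisher p = 0.000465).

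By raw share, the string found at most members was the E-box CAGCTG, a short string, the core recognised by E proteins such as E2A and HEB and by other basic helix-loop-helix factors. It was found at 923 members, 30.4% (28.8 to 32.0), and at 10.4% of their flanks, a centre to flank ratio of 2.92. That ratio was higher for CTCF (28.7), PU.1 (6.68), NRF1 (6.67) and SP/KLF (3.58). The E-box shares were 23.4% (22.2 to 24.7) at LP-specific peaks with RUNX1, 24.2% (22.3 to 26.3) at constant peaks without RUNX1, 22.0% over all LP p300 peaks and 15.9% (15.3 to 16.6) at Phase 1-specific peaks without RUNX1. Within the members it was more common where CTCF was absent, at 35.5% (33.5 to 37.5) against 16.8% (14.4 to 19.5) with LP CTCF. It reached 36.9% (34.6 to 39.4) at the members with neither Med12 nor CTCF, and 26 of the 66 members that scored 100 or more carried it. No test of this string was planned, and these shares were looked at after the others. The printed Cradd, Armc12, Hemk1, Runx3 and Irf8 members each hold at least 1 copy. Armc12 and Hemk1 were picked for holding it, so the printed set does not show how common the string is.

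**Figure D5:**
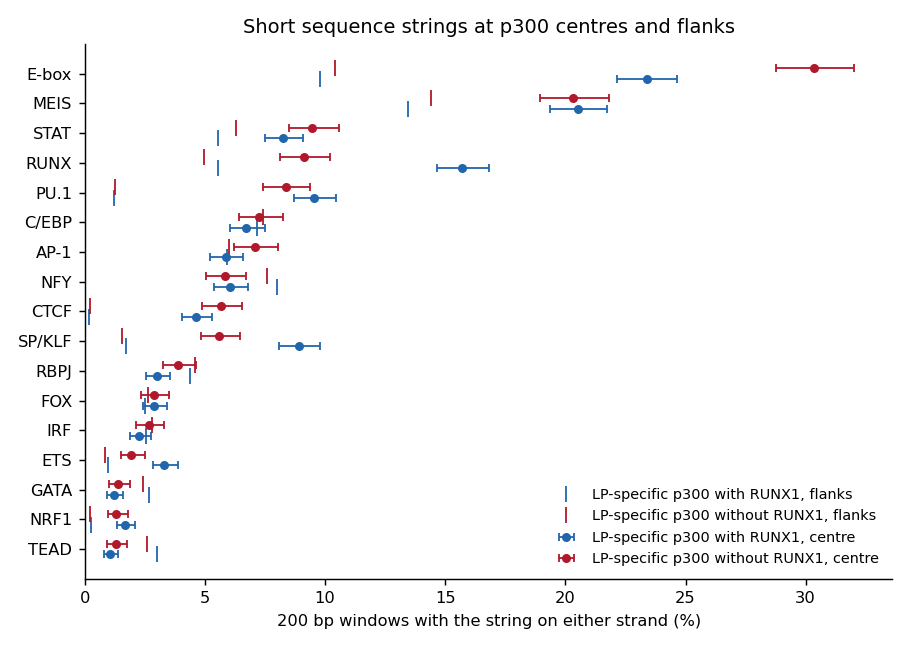
Share of 200 bp windows that hold each string on either strand (percent), at p300 centres (points with 95% Wilson intervals) and at flanks 2 kb to each side (vertical ticks), for members (red) and LP-specific peaks with RUNX1 (blue). The E-box is at 30.4% of member centres against 10.4% of flanks, and the RUNX string is the one where the blue class lies farthest above the red.

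The remaining strings had lower raw shares. The PU.1 string GAGGAAGT, bound by a factor of early progenitors and myeloid cells, was at 8.36% of members and 1.25% of flanks, and at 9.56% of LP-specific peaks with RUNX1 (adjusted Fisher p = 0.108). With the 3 settings that left out promoters, searched whole peaks or equalised list lengths, and when matched on score, the lower share at members passed the threshold. Members with LP CTCF had the PU.1 string at 2.77% and those without at 10.4%. TGACAG, the string of MEIS homeobox factors, was at 20.3% of members and 14.4% of flanks, and can overlap the E-box as TGACAGCTG, as it does in the Runx3 member. AP-1 was at 7.07% of members and 5.99% of flanks, and at 5.87% of LP-specific peaks with RUNX1 (adjusted Fisher p = 0.0623). This difference was called with RUNX1 absent within 1 kb (adjusted Fisher p = 0.0165), at equal list lengths (adjusted Fisher p = 0.00153) and over whole peaks (adjusted Fisher p = 0.00459). The RBPJ string was at 3.88% of members and 4.57% of flanks.

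The highest-scored members were not those with most partners. Cradd, an adaptor of the apoptosis machinery, held the first in intron 2 of 2, at chr10:95314016-95314344, with a p300 score of 531.1 and an LP Med12 score of 287, and no Phase 1 Med12, CTCF or Notch1-IC peak. The next, at chr17:28518155-28518483 and 12.5 kb upstream of Armc12, scored 447.2 and had no peak of any other factor. The third lay in intron 1 of 23 of Sipa1l1, a regulator of Rap GTPases, at chr12:82230174-82230502 with a score of 403.1, and was likewise alone. The fourth, chr8:105622398-105622726 at the end of Ripor1, scored 379.6 and had CTCF scores of 347 in LP and 426.7 in Phase 1. The fifth, chr15:72929208-72929536, scored 351.4 in intron 14 of 21 of Trappc9, the gene that surrounds the imprinted transcript Peg13. So 3 of the 5 had no Med12 or CTCF peak in the unperturbed cells. Members of score 100 or more had a median focus ratio, HOMER's measure of how well reads flank the peak centre, of 0.747, against 0.796 at the other members. In LP-specific peaks with RUNX1 the values were 0.757 and 0.790.

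Members with Med12 in LP only, by the lists of the unperturbed cells, were led, after Cradd, by a site in intron 1 of 8 of Bckdha (a subunit of the branched-chain keto acid dehydrogenase), chr7:25644805-25645133, with a p300 score of 171.3 and a Med12 score of 51.3. The promoter of Otub1, a deubiquitinase, followed with scores of 139 and 183.7. The promoter of Gm5111 and a site 12.95 kb from Pmaip1 (Noxa, which promotes apoptosis) had p300 scores of 129.5 and 128.8. Otub1 and Pmaip1 did have Med12 peaks in the Phase 1 cells with guides, at scores of 68.4 and 36.6 in sgCont and 69.0 and 27.7 in sgCbfb cells. Members with LP CTCF were led by the Ripor1 site and by chr11:53795321-53795649, in an intron of Gm12216 and 25.01 kb from Irf1, with a p300 score of 330.3 and CTCF scores of 54.3 in LP and 64.7 in Phase 1. A site next to 4932412D23Rik came next, with a p300 score of 303.2 and CTCF scores of 24.3 and 26.8, and its nearest other LP p300 peak lay 534 kb away. The fourth, chr18:3005547-3005875 and 117.7 kb from Vmn1r238, had an LP CTCF score of 181.2 and no Phase 1 CTCF peak. Its nearest other LP p300 peak lay 126 kb away. No list of artefact-prone regions was applied here, so whether this site is a mapping artefact was not tested. The fifth was 2.55 kb upstream of Cd72, a B lineage surface receptor, with CTCF scores of 47.2 and 47.3.

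Each member was assigned to the gene of the nearest start, which is a label of position and not of regulation. The 3038 members with a named gene were spread over 2482 genes, 2073 of which had a single member and 28 of which had 4 or more. The order here is by raw count, and members were 8.4% of all LP p300 peaks. Dad1 had most, 7 of its 29 LP p300 peaks, at scores from 15.8 to 43.1. These 7 all lay inside the T cell receptor alpha locus, which ends beside Dad1, and 5 of them had CTCF at both stages while 1 had LP Med12. Ajap1 and Chst3 (a chondroitin sulfotransferase) followed with 6 each, of 16 and 10 LP p300 peaks. The Ajap1 members had no Med12 or CTCF peak. The neighbouring BC039966 had 4, of 18 LP p300 peaks, and these included 1 with a p300 score of 120.1 and LP Med12. Sipa1l1, Nol4l, Klhl25, Mir3106, Runx1 and Pik3r1 (the regulatory subunit of PI3 kinase) had 5 each. The LP p300 peaks at these genes numbered 24, 15, 29, 9, 36 and 29, in that order. The 5 of Mir3106 lay in introns of Csmd1. Ets1, a lymphoid ETS factor, had 4, of 12 LP p300 peaks, with scores from 15.2 to 52.4, none with Med12 or CTCF. Irak1bp1, Nphp4, Xxylt1 and Stard3nl also had 4 each, with LP Med12 at 1, 1, 1 and 0 of them and CTCF at both stages at 0, 1, 1 and 2. The LP p300 peaks at these genes numbered 5, 8, 21 and 17. Of the 4 assigned to Stard3nl, 3 lay in the T cell receptor gamma locus.

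Because of the Dad1 and Stard3nl sites, the antigen receptor loci were counted after these values had been seen. The members made up 10 of 63 LP p300 peaks in Tcra (15.9%), 3 of 13 in Tcrg (23.1%), 4 of 32 in Tcrb (12.5%), 5 of 98 in Igh (5.10%), 1 of 8 in Igk (12.5%) and 0 of 1 in Igl, against 8.4% over the list. Tcrd, which lies inside Tcra, held 2 of the 10. CTCF was at both stages on 5 of the 10 in Tcra, 3 of the 4 in Tcrb, 4 of the 5 in Igh, 1 of the 3 in Tcrg and 0 of 1 in Igk, against 25.4% of all members. LP Med12 was at 4, 1, 3, 0 and 0 of them, and Phase 1 Med12 at 0, 0, 1, 0 and 0. The p300 scores were low, up to 43.1 in Tcra, 41.3 in Tcrb and 17.1 in Igh. LP-specific p300 peaks with RUNX1 numbered 12 in Tcra, 1 in Tcrg, 5 in Tcrb, 8 in Igh and 2 in Igk. The loci were also rich in CTCF, with 74 LP CTCF peaks in Tcra, 4 in Tcrg, 26 in Tcrb, 123 in Igh and 30 in Igk. CTCF at the other p300 peaks of these loci was not counted, so its share there cannot be called particular to the members.

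Of 30 genes for blood and lymphoid progenitor factors, 10 had a member, and these 23 members were 0.757% of all members, against 0.520% of LP p300 peaks at the same list. At LP-specific peaks with RUNX1 the share was 0.674%. For the lists that follow, the share in that class was 0.270% (B lineage), 0.202% (T lineage and Notch), 0.225% (cytokine receptors), 0.0899% (myeloid) and 0.0449% (stromal). No test was made of these lists. Hhex, a homeobox factor of early lymphoid progenitors, had 1 in its intron, chr19:37436505-37436833, with a p300 score of 87.9 and LP Med12 alone. Mycn, a proliferation factor, had 3 with scores of 77.3, 19.0 and 15.2 and no Med12 or CTCF. Runx3 had 1 intronic member with LP Med12, at a score of 49.3, and another with CTCF at both stages, at 42.2. Runx1 itself had 5, all intergenic, 191 to 256 kb upstream of the assigned start, with scores of 15.8 to 25.2 and no Med12 or CTCF. They stood beside 8 LP-specific p300 peaks with RUNX1 and 36 LP p300 peaks in all at that gene. Erg, an ETS factor of stem cells, had 4 in introns at 16.7 to 22.0, of which the highest had CTCF at both stages. Etv6 had 2, at 30.2 and 15.8, the lower with LP Med12. Nfe2 had 1 with CTCF at both stages (31.2), and Zfpm1, a cofactor of GATA proteins, 2, at 21.6 with LP CTCF and at 19.2.

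Of 20 B lineage genes 6 had members, 10 in all, or 0.329% of members against 0.271% of LP p300 peaks. Irf8, a factor of B and myeloid cells, had 3, at scores of 57.5, 43.5 and 23.8, and the one in its intron, 5.06 kb from the start, had LP Med12. Foxo1 had 2 (22.2 and 18.5, the lower with LP Med12), Lef1 2 (19.0 with LP Med12, and 18.2), and Bach2 (34.3), Irf4 (19.9) and Ebf1 (19.5, in an intron of the gene these cells lack in function) 1 each without Med12 or CTCF. The 24 T lineage and Notch genes had fewer, 3 members at 3 genes, 0.0987% against 0.282%. They were at Cd247, the CD3 zeta chain (23.9), Notch1 (17.7) and Tcf7, the gene of the T cell factor TCF1 (16.2), and none had Med12 or CTCF. Nfe2 and Zfpm1, which the paper names as Notch-regulated T-signature genes, were counted here with the progenitor factors. Lef1, which the paper places among T progenitor regulons, was counted with the B lineage genes. All of these had members, so the shares depend on how the lists were drawn.

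The 15 cytokine receptor genes had 2 members, 0.0658% against 0.130%, at Il1rl1 (23.3) and 27.3 kb upstream of Il7r (15.2), the receptor for a cytokine in the medium. Of 20 myeloid genes 2 had members, 5 in all (0.164% against 0.127%). Mpo, a granule enzyme of myeloid progenitors, had 1 in an exon with Med12 at both stages (23.4) and 1 at its promoter (20.1), and Klf4 had 3 at 16.2 to 19.5. Of the 24 stromal marker genes, 1, Twist2, had a member (25.7), which carried LP Med12, 0.0329% of members against 0.0276% of LP p300 peaks.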

How the data were processed

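Peak lists, 1 per ChIP group, were used as deposited. The authors aligned reads to mm10 with Bowtie 1.1.1 (per the submitters' processing notes), called peaks with HOMER (factor style, against a control) and kept peaks reproducible between 2 replicates by an adaptation of the irreproducible discovery rate, with a score of at least 15. The deposited peak score is the authors' normalized score. Its scale was not given in the sources used here, so scores were compared only within a list. The reads were not used here, so the depth behind each list was not computed. Inputs were not analysed here.

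Overlap meant 1 shared bp. The authors' annotation and distance to the start were used. The gene name column was empty, so the RefSeq accession of the nearest promoter was matched to a symbol (RefSeq and GENCODE M21), which worked for 3038 of 3040 members and 36141 of 36182 LP p300 peaks. Python 3.11.15, pandas 2.3.3, scipy 1.17.1, statsmodels 0.14.6 and pysam 0.24.0 were used. Shares carry 95% Wilson intervals, and 18 two-sided Fisher's exact tests were adjusted by Benjamini-Hochberg with a threshold of 0.05. The code was tested on simulated peaks. No peak ran past a chromosome end of GRCm38, and positions are 1-based. Other strings, beside those spelled in the text, were CCGGAAG for ETS factors, AGATAAG for GATA factors, TTGCNNAA for CEBP factors, TTCNNNGAA for STAT factors, GGGGCGG for SP and KLF factors, CCAATNA for NFY, TGTTTAC for FOX factors, GGAATGT for TEAD factors and those of CTCF, IRF and NRF1, by name. Score classes were 5 equal-sized classes of the peaks of both classes compared or, between stages, of each stage's own p300 list.

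The members and gene lists were chosen with earlier results of these data known. Sites were named as the 5 highest-scored of all members, of those with LP Med12 only, with LP CTCF and with Notch1-IC. Genes were named as the 15 with most members (ties by the highest p300 score) and up to 8 per list with a member. Receptor loci came from the RefSeq annotation. Alternatives were other score limits, overlap distances, class rules, list lengths, score matching and the string window.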

Additional observations from a re-analysis of the deposited data

Results flagged for a closer look

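The Med12 lists of Phase 1 cells with guide RNAs enter no test above, and the sgCbfb list gave a signal at the members above that of the control list. A Med12 peak of the sgCbfb cells, in which the binding partner of RUNX proteins was targeted, overlapped 323 members, 10.6% (9.58 to 11.8). The sgCont list overlapped 52, 1.71% (1.31 to 2.24). Only 28 members were in both lists, so 295 had the sgCbfb peak alone and 24 the sgCont peak alone. Over all LP p300 peaks the order was the other way, 42.8% for sgCbfb and 47.9% for sgCont, and the lists held 18099 and 19053 peaks. The excess was shared by the other classes that were low in Phase 1 Med12. It was 24.6% against 13.5% for LP-specific peaks with RUNX1 and 17.2% against 5.54% for constant peaks without RUNX1. Phase 1-specific p300 peaks without RUNX1 had 1.92% against 0.527%. Constant peaks with RUNX1 had 51.2% against 61.6%.

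Of the 323, 157 (48.6%, 43.2 to 54.0) had an LP CTCF peak and 144 (44.6%, 39.3 to 50.0) an LP Med12 peak, against 27.3% and 25.5% of all members. The sgCbfb peak was found at 18.6% (15.98 to 21.4) of members with LP Med12 and 7.91% (6.86 to 9.09) of those without. The E-box string was at 14.2% of the 323 and the RUNX string at 3.10%. Each list is 1 merged pair of replicates, the difference between the lists was not tested against replicate error, and its cause was not tested. The paper states that enough cells deficient in Cbfb, Ctcf or Med12 were hard to prepare. Their ChIP-seq therefore used only the number of cells needed. It reports more noise there, which made close analysis hard. The paper also reports weaker Med12 peaks after Cbfb disruption at Notch1-IC sites near Notch3, Hes1, Tcf7 and Gata3, which RUNX1 bound as well.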

How the results depend on the processing

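No paired analysis was possible because each list merges its 2 replicates, which also left no replicate to leave out. Of 177 values recomputed under the alternatives, 143 kept their direction and side of the threshold (for counts, stayed within 1.5 times). The odds ratio of LP Med12 against LP-specific peaks with RUNX1 stayed between 0.067 and 0.16, those of Phase 1 Med12 between 0.12 and 0.31 (with RUNX1) and 0.079 and 0.21 (constant), same-stage CTCF against Phase 1-specific peaks between 3.62 and 7.04, and the RUNX string between 0.49 and 0.58, all past the threshold. The rule itself favours the direction found for Phase 1 Med12 against constant peaks and for the RUNX string. For Phase 1 Med12 against peaks with RUNX1, 39.0% of the latter had a Phase 1 RUNX1 peak, which the rule denies to members. A p300 score of at least 20 left 1624 members and one of at least 30 left 647. Other odds ratios moved as follows, past the threshold where marked with an asterisk, and no cause was tested. LP Med12 against constant peaks was 1.04 at scores of at least 20, 1.02 with centres within 100 bp, 0.85* within 500 bp, 1.01 below a score of 100 (an alternative chosen after seeing the data) and 1.14 matched on score. LP CTCF against peaks with RUNX1 was 0.95 at scores of at least 30, 1.20* with equal list lengths and 0.92 matched on score, and against constant peaks 1.03 with equal lengths. Phase 1 CTCF against peaks with RUNX1 was 0.995 at scores of at least 30, 1.17* with centres within 100 bp, 1.26* with equal lengths and 0.93 matched on score, and against constant peaks 0.94 with equal lengths. LP Notch1-IC against peaks with RUNX1 was 0.36* with centres within 100 bp, 2.24 below a score of 100 and 1.45 matched on score, and against constant peaks 1.13 at scores of at least 30. Same-stage Med12 was 1.07 with equal lengths, 1.27* matched on score and as low as 0.30* at scores of at least 30. The lowest same-stage CTCF value, 3.62, came from that setting too. It put 1 score limit on the p300 lists of both stages, whose scales may differ. The CTCF string was 1.30* with RUNX1 absent within 1 kb, 1.39* with equal lengths and 0.996 matched on score. The PU.1 string was 0.81* without promoters, 0.73* with equal lengths, 0.83* over whole peaks and 0.80* matched on score. The AP-1 string was 0.83 at scores of at least 30, 1.30* with RUNX1 absent within 1 kb, 1.29* with equal lengths and 1.28* over whole peaks. Promoter annotation against constant peaks was 0.75 with RUNX1 absent within 1 kb. Depth limits what a missing peak can mean, since low-scored sites near the limit of 15 can fall below it in another list.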

Other observations

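Repeats made up part of the members' annotation. SINE elements took a larger share than in the whole list, as they did in the compared classes (no test was made). LTR elements held 7.96% of members, SINE 4.64% (3.95 to 5.44) and LINE 2.80%, against 7.03%, 2.88% and 2.36% of all LP p300 peaks. SINE held 4.00% of LP-specific peaks with RUNX1, 5.43% of constant peaks without RUNX1 and 3.90% of Phase 1-specific peaks without RUNX1. The median GC content of the 200 bp centres was 51.0% at members, 46.5% in their flanks and 53.0% over all LP p300 centres, and the mean number of CpG per centre was 4.39 at members and 7.61 over all. In the same 3 classes, in that order, the median GC content was 52%, 50% and 47%. Their mean number of CpG was 5.34, 5.12 and 2.92.

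Spacing along the genome was also counted. Another member lay within 50 kb of 976 members (32.1%, 30.5 to 33.8), whereas 47.3% (45.9 to 48.8) of the 4451 peaks with RUNX1 had another of their class that near. The second class is larger, and no correction for its size was made.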
